A study of Homo sapiens with 4 samples.

Results

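The 33 genes described here encode components of the pathway that runs from phosphoinositide 3-kinase (PI3K) through the kinase AKT to the mTOR complexes and the FOXO transcription factors. They are the rows of the deposited results table whose gene symbol is one of the listed components, 33 of 19749 rows, and all 33 had an adjusted p-value. The study used U87 cells, an established human glioblastoma line. Poly(A)-selected RNA was sequenced from 2 libraries of DMSO (vehicle) cells and 2 libraries of cells exposed for 24 h to YZ129, a small molecule, at 5 µM, with no genetic change named in either group. The series title connects the compound with blocking signalling from HSP90 through calcineurin to NFAT. The single comparison asked which transcripts differed between these groups.

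PI3K is recruited to activated receptors by adaptors such as the insulin receptor substrates and makes a lipid messenger at the plasma membrane, which brings PDK1 and AKT together. AKT then phosphorylates and restrains the TSC complex, GSK3 and the FOXO factors, and release of the small GTPase RHEB from TSC switches on mTORC1, which drives protein synthesis through S6 kinases and other outputs. Lipid phosphatases, AKT phosphatases, the TSC complex and the inhibitory mTOR subunits hold the pathway back. In glioblastoma the pathway is commonly active, and several of its kinases are known clients of the chaperone HSP90. The libraries measure transcripts, so neither the phosphorylation nor the amount of these proteins was seen.

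All values per gene are from the authors' deposited table, which gives a mean level (normalized reads), a moderated log2 fold change with its standard error (± SE below) and an adjusted p-value, but no value per library. The mean level covers 8 libraries, 4 more than the samples described here, so it is not a level of either group. Positive changes were taken to mean a higher level in YZ129 cells. The table does not state the direction, and its comparison is named with DMSO first. The reading rests on heat shock genes, which loss of HSP90 function is known to induce: of 13 such genes 6 passed in the positive direction, 0 in the negative, and 7 did not pass, both cytosolic HSP90 genes among them. In the authors' deposited table the inducible HSP70 gene HSPA6 had 2.64 ± 0.23 and the cochaperone BAG3 0.99 ± 0.14. Under the opposite reading every rise given here becomes a fall and every fall a rise, with the same sizes and p-values. Whether both libraries of a group stem from separate cultures is not labelled, and the spread behind the p-values may therefore be technical. Which of the 8 libraries entered the estimate of that spread is not known, so every SE and adjusted p given here may rest in part on libraries other than the 4 described. Among astroglial and glioma markers VIM (mean level 298885) and CD44 (134994) were abundant in the authors' deposited table. These markers moved as well: 3 of 5 tested fell (60%), beside 12.9% of all tested genes that passed and 7.64% that fell. VIM (-0.46 ± 0.13), CD44 (-0.38 ± 0.13) and NES (-0.59 ± 0.15, mean level 909) were those that fell in the authors' deposited table. OLIG2 (0.82 ± 0.33, mean level 96.2) and GFAP (-0.56 ± 0.39) did not pass. VIM and CD44 lie in the highest decile of mean level, where the median change of all tested genes was -0.16. The part of these marker changes in those of the pathway genes was not tested. GFAP (52.2), S100B (1.12) and SOX2 (0.851) were low in the authors' deposited table, and the marker AQP4 had no row. Of 8 markers of blood, epithelial, endothelial and neuronal cells 7 had a mean level under 50, with the neuronal gene SYT1 (408) as the exception.

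FOXO factors bind DNA with the core GTAAACA, and insulin response sequences, first described in genes that insulin turns off, carry CAAAACA. Both were searched, on both strands, in RefSeq promoter windows of 300 bases (250 before to 50 after a gene start, build GRCh38.p14), of which 54 belong to 30 of the 33 genes; AKT1S1, DEPTOR and MLST8 have none. CAAAACA or its reverse complement TGTTTTG stood in 4.92% of all 35116 windows and in those of IRS2, PIK3CD and RPS6KB1. GTAAACA or its reverse complement TGTTTAC stood in 3.42% of all windows and in those of PIK3CA and FOXO4. A match describes the letters and is not a binding site shown by these data. The windows of IRS2 and IRS1 are printed whole because these adaptor genes changed in opposite directions, and that of PIK3CD because it holds the same letters as IRS2 and fell; the other matches are shown with their surroundings. Capitals mark the matched letters, all sequences run 5′ to 3′ along the gene's own strand, and the IRS1 window holds neither pattern. None of the printed stretches holds both.
IRS2, chr13:109786534-109786833, minus strand: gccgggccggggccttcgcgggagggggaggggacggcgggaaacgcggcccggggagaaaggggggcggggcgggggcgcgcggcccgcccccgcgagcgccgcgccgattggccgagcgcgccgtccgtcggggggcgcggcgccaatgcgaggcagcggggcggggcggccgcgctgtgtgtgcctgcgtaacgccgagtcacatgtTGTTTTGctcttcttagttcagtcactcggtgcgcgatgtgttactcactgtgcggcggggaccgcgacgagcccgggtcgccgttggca
IRS1, chr2:226799771-226800070, minus strand: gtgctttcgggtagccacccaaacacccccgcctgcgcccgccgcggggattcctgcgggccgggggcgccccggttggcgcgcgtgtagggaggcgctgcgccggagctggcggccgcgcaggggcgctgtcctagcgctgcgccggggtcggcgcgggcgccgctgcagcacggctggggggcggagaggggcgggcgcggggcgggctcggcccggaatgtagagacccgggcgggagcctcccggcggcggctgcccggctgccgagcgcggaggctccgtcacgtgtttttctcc
PIK3CD, chr1:9651481-9651780, plus strand: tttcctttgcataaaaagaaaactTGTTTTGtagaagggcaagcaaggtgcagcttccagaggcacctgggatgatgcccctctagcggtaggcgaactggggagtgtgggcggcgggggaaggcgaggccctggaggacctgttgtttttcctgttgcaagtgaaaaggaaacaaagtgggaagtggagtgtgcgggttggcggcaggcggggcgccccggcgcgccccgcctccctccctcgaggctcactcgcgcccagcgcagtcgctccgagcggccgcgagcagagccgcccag
RPS6KB1, chr17:59892952-59893012, plus strand: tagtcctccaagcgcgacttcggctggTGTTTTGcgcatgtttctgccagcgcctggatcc
PIK3CA, chr3:179148181-179148241, plus strand: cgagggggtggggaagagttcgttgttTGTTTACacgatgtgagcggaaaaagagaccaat
FOXO4, chrX:71095847-71095900, plus strand: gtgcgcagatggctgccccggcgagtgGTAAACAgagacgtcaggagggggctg
In the IRS2 window the match begins 40 bases before the gene start, in PIK3CD 226 bases before it, in RPS6KB1 142 and in PIK3CA 149. The FOXO4 match begins 23 bases after the start. PIK3CD has other RefSeq starts, whose windows hold no match.

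Of the 33 genes 6 passed an adjusted p of 0.05: IRS2, INPP4B and TSC1 rose with YZ129, and PIK3R2, IRS1 and PIK3CD fell. That is 18.2% of the genes, where 12.9% of all 14812 tested genes passed (5.24% higher, 7.64% lower), so the share lies near the background. The median change of the 33 was -0.01 on the log2 scale and that of all tested genes -0.05. Positive values numbered 16 and negative ones 17. None of the 33 changed as much as the most affected genes of the table: the largest change, that of IRS2, ranked 440th among the rises.

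**Figure D1:**
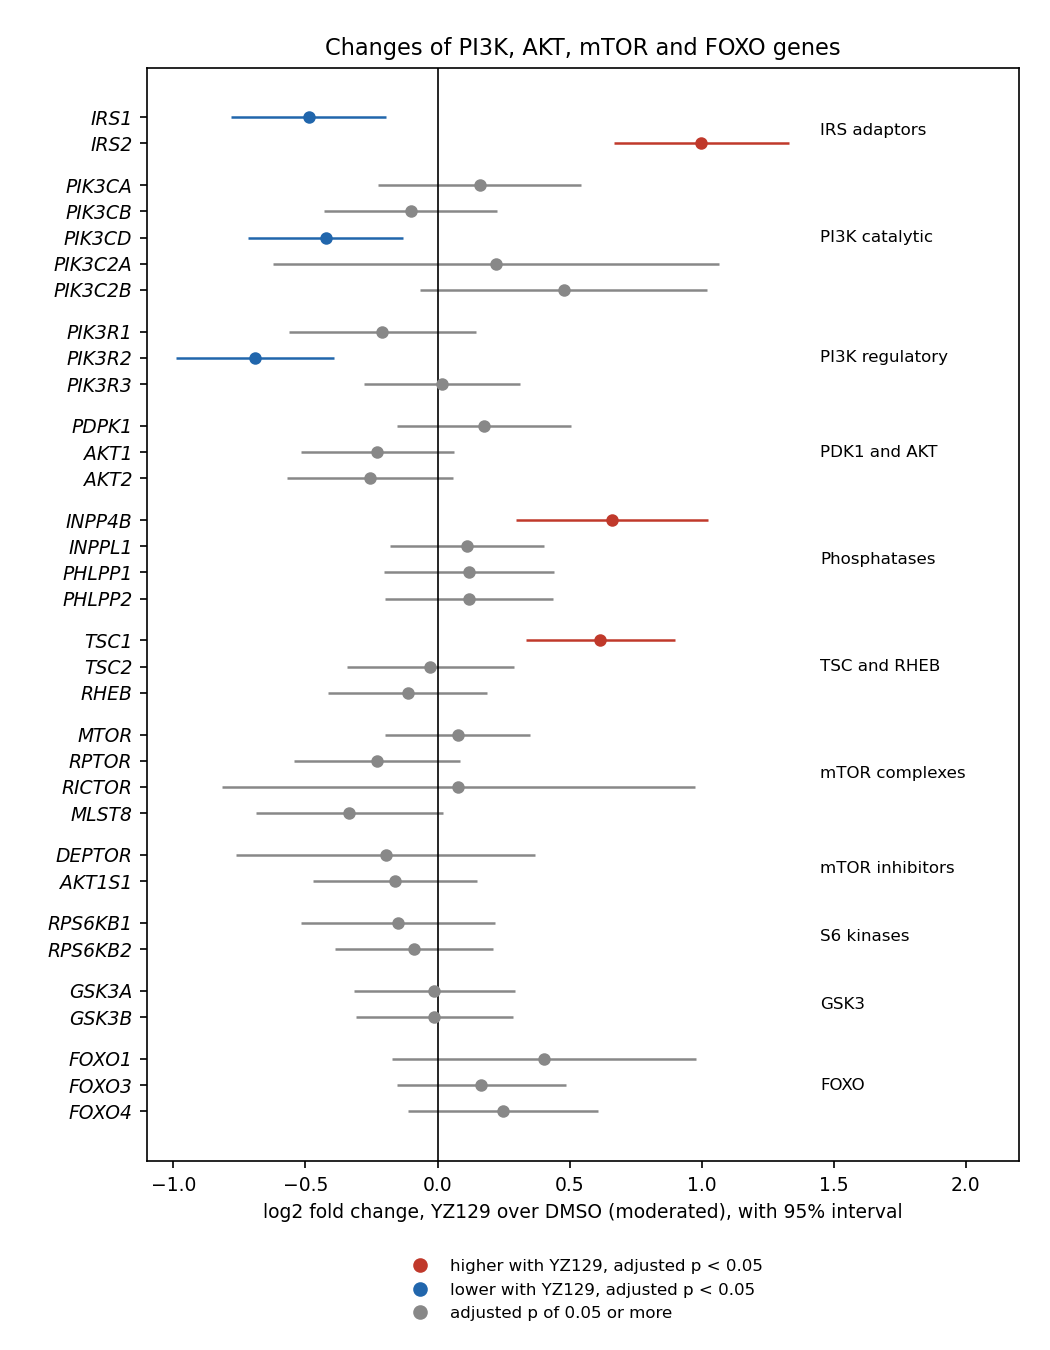
Moderated log2 fold change of each of the 33 genes, YZ129 over DMSO, ordered by role. Points are the deposited estimates and lines their 95% intervals (estimate ± the normal quantile times the SE). The intervals of IRS2, INPP4B and TSC1 lie above 0, those of IRS1, PIK3CD and PIK3R2 below it, and RICTOR and PIK3C2A have the widest intervals.

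**Figure D2:**
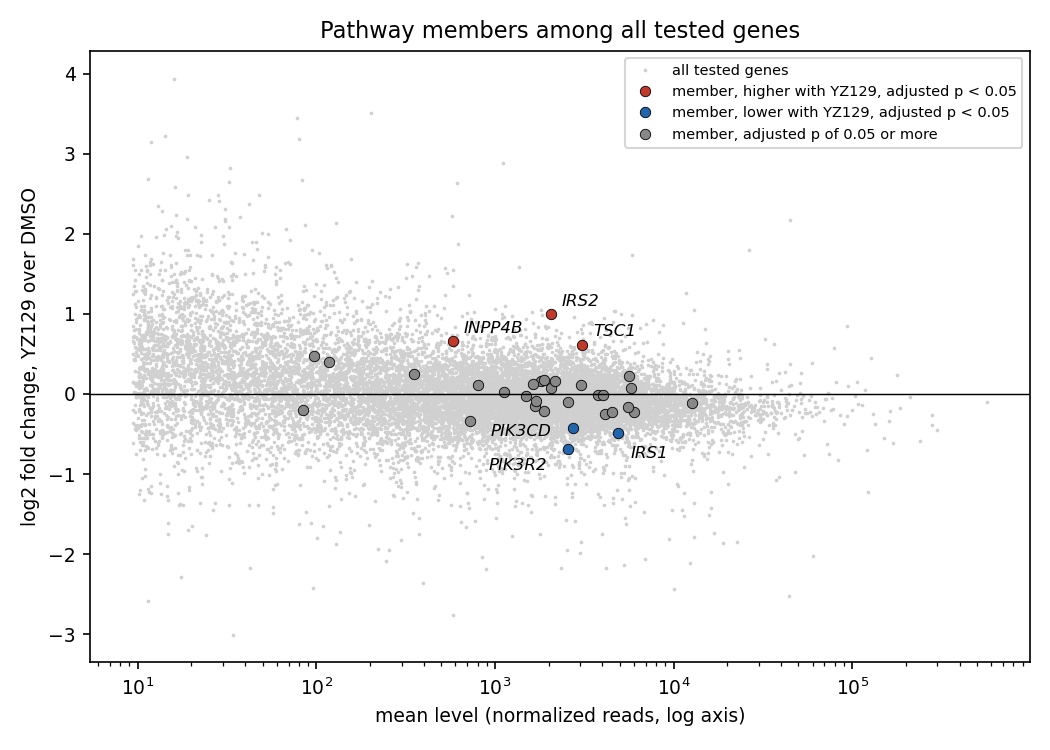
Mean level (horizontal, log axis, normalized reads) against moderated log2 fold change for the 14812 tested genes (light points) and the 33 pathway genes (large points, coloured by call). The pathway genes sit within the bulk of the table, between -0.69 (PIK3R2) and 1.00 (IRS2).

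The insulin receptor substrates, the adaptors that link receptors to PI3K, went in opposite directions. IRS2 rose 2.00-fold in the authors' deposited table (1.00 ± 0.17, adjusted p = 2.39e-07, mean level 2068), with a 95% interval of 0.67 to 1.33. IRS1 was 1.40-fold lower there (-0.49 ± 0.15, adjusted p = 0.013, mean level 4880), with an interval of -0.78 to -0.19. The intervals do not overlap. Centred within deciles of mean level, IRS1 stood at -0.37 and no longer passed (adjusted p = 0.090). Per kilobase of the longest coding transcript in GENCODE 29, the mean level was 503 for IRS1 and 254 for IRS2, so the adaptor that fell was the more abundant of the pair over the 8 libraries. The IRS2 exons overlap an antisense RNA gene by 115 bases, and the sources used here do not say whether strand was used in counting.

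PI3K has catalytic subunits that phosphorylate the lipid and regulatory subunits that stabilize them and dock to adaptors. Among the 3 listed class I catalytic genes PIK3CD fell in the authors' deposited table (-0.42 ± 0.15, adjusted p = 0.039, mean level 2751), which is 1.34-fold lower. It did so narrowly: with no filter on low levels its adjusted p was 0.051, and centred on the median of all tested genes 0.081. Centred within deciles of mean level it stood at -0.33 with an adjusted p of 0.15. In the authors' deposited table the ubiquitous catalytic genes PIK3CA (0.16 ± 0.20) and PIK3CB (-0.10 ± 0.17) did not pass, and their intervals stayed between -0.43 and 0.54. PIK3CD, best known from leukocytes, had a mean level of 502 per kilobase, against 436 for PIK3CB and 199 for PIK3CA. The exons of PIK3CA overlap those of KCNMB3 on the other strand by 3403 bases, the longest overlap with a gene on the other strand among the 33, so its level may include reads of that gene.

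The class II catalytic genes among the 33, whose products make other phosphoinositides for membrane traffic, were measured with little precision. Neither passed in the authors' deposited table, where PIK3C2A had 0.22 ± 0.43 and PIK3C2B 0.48 ± 0.28 (adjusted p = 0.80 and 0.28). For PIK3C2A the interval ran from -0.62 to 1.07, which spans ratios of 0.649 to 2.10. PIK3C2B had a mean level of only 97.1, or 12.6 per kilobase, the lowest of the 33 per length.

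Of the regulatory subunits PIK3R2 fell 1.62-fold in the authors' deposited table (-0.69 ± 0.15, adjusted p = 0.00017, mean level 2553), the largest fall among the 33 genes. PIK3R1, which encodes the main regulatory subunit in most tissues, had -0.21 ± 0.18 and PIK3R3 0.02 ± 0.15 in the authors' deposited table. Neither passed. The interval of PIK3R1, -0.56 to 0.15, overlaps that of PIK3R2, -0.99 to -0.39, while that of PIK3R3, -0.28 to 0.31, does not. Per kilobase PIK3R2 was the most abundant of the 3, at 633, with PIK3R1 at 268 and PIK3R3 at 201. A read-through gene on the same strand shares 3947 bases of exon with PIK3R2, so reads counted for one may belong to the other. The same holds for PIK3R3, which shares 1292 bases with another gene on its strand. Among the other genes GSK3A (479 bases) and RPS6KB1 (149) have such overlaps.

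The 4 phosphatase genes among the 33, whose products oppose PI3K and AKT, all had positive values, and INPP4B passed. Phosphatase genes among the other regulators of PI3K and AKT counted below had values of both signs, and none of those passed. INPP4B, which removes a phosphate from a lipid product of PI3K, rose 1.58-fold in the authors' deposited table (0.66 ± 0.19, adjusted p = 0.0056, mean level 584). Per the authors' deposited table the lipid phosphatase gene INPPL1 (0.11 ± 0.15) and the AKT phosphatase genes PHLPP1 (0.12 ± 0.16) and PHLPP2 (0.12 ± 0.16) did not pass. Their intervals reached from -0.20 to 0.44, inside a change of 1.5-fold in either direction. Such intervals rest on moderated changes and an SE that may be technical, so they do not exclude that size. INPP4B had the lowest level of these 4, 66.2 per kilobase, against 645 for INPPL1, 193 for PHLPP2 and 126 for PHLPP1.

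The kinases at the centre of the pathway did not pass. PDPK1, which encodes PDK1, the kinase that activates AKT, had 0.17 ± 0.17 in the authors' deposited table, and AKT1 -0.23 ± 0.15 and AKT2 -0.26 ± 0.16 (adjusted p = 0.57, 0.35 and 0.32). The AKT1 interval was -0.52 to 0.06 and the AKT2 interval -0.57 to 0.06, so both reach a fall of about 1.5-fold and little rise. Per kilobase the mean level was 1542 for AKT1 and 778 for AKT2.

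In the TSC complex, which turns RHEB off, one of the partners rose. TSC1 was 1.53-fold higher in the authors' deposited table (0.62 ± 0.14, adjusted p = 0.00044, mean level 3093), with an interval of 0.34 to 0.90. TSC2, the subunit with the GTPase-activating domain, had -0.03 ± 0.16 there, with an interval of -0.34 to 0.29 that does not overlap that of TSC1. RHEB, the activator of mTORC1, had -0.11 ± 0.15 in the authors' deposited table and was the most abundant transcript of the 33, at 6077 per kilobase. TSC2 exons overlap PKD1 by 778 bases and NTHL1 by 158, both on the other strand, while those of TSC1 overlap no annotated gene.

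None of the 6 genes of the mTOR complexes passed. MTOR, the kinase, had 0.08 ± 0.14 in the authors' deposited table, and its interval of -0.20 to 0.35 is the narrowest of the 33. RPTOR, the scaffold of mTORC1, had -0.23 ± 0.16 there and the shared subunit gene MLST8 -0.33 ± 0.18 (adjusted p = 0.39 and 0.23). RICTOR, the scaffold of mTORC2, had 0.08 ± 0.46 in the authors' deposited table, and its interval of -0.82 to 0.97 spans ratios of 0.568 to 1.96. The inhibitory subunit genes were DEPTOR, at -0.20 ± 0.29 in the authors' deposited table, and AKT1S1, at -0.16 ± 0.16. DEPTOR was scarce, with a mean level of 84.0, the lowest of the 33, while AKT1S1 had 5590.

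The S6 kinase genes, RPS6KB1 and RPS6KB2, did not pass, with -0.15 ± 0.19 and -0.09 ± 0.15 in the authors' deposited table. GSK3A and GSK3B, which encode kinases that AKT switches off, both had -0.01 there, with SE of 0.16 and 0.15, the values closest to 0 among the 33. The sign of RPS6KB2, TSC2, RHEB, GSK3A and GSK3B turned under at least one way of centring, so their direction is not settled. Counts of positive and negative values use the uncentred signs, which were negative for RPS6KB2, TSC2, RHEB, GSK3A and GSK3B. The 3 FOXO genes had positive values and none passed: FOXO1 0.40 ± 0.29, FOXO3 0.17 ± 0.16 and FOXO4 0.25 ± 0.18 in the authors' deposited table. FOXO3 carried most of the FOXO transcript, at 294 per kilobase, against 106 for FOXO4 and 20.7 for FOXO1. The FOXO1 interval, -0.17 to 0.98, reaches a rise of 1.97-fold.

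**Figure D3:**
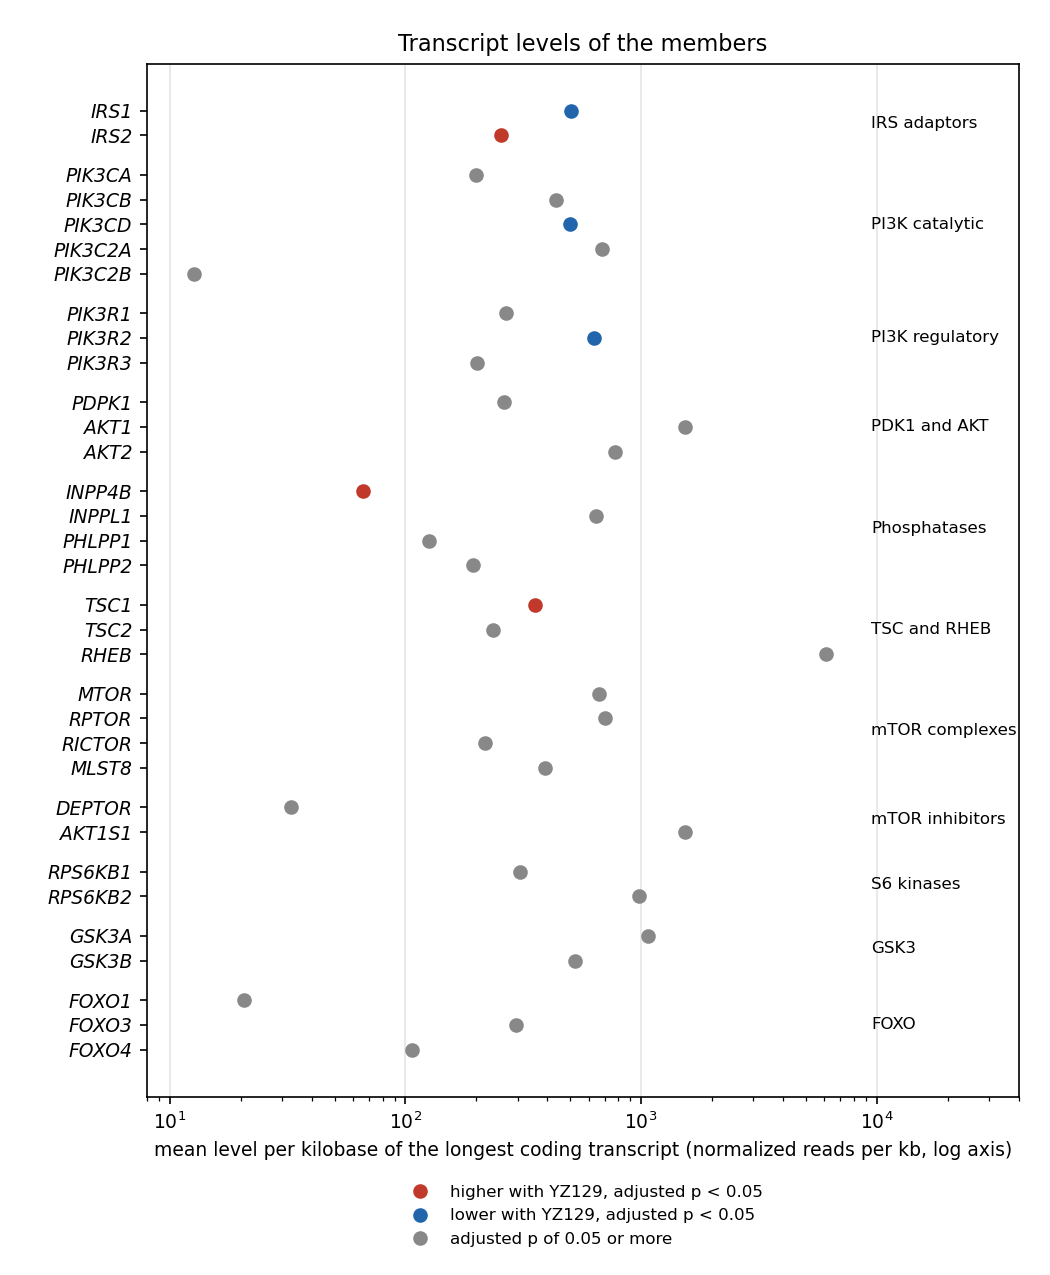
Mean level of each of the 33 genes divided by the length of its longest coding transcript (normalized reads per kilobase, log axis), by role and coloured by call. RHEB is highest at 6077 and PIK3C2B lowest at 12.6; the level is a mean over 8 libraries and the transcript actually used in U87 cells was not analysed here.

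Activators and restrainers of the pathway were then set side by side. The 17 activators were adaptors, catalytic subunits of class I and class II, PDK1, AKT, RHEB, mTOR complex subunits and S6 kinases. Of these 1 rose, 2 fell and 14 did not pass, and the median change was -0.10. Of 8 restrainers (phosphatases, TSC1, TSC2, DEPTOR and AKT1S1) 2 rose, 0 fell and 6 did not pass, and the median was 0.11. The shares that passed were 17.6% of the activators and 25% of the restrainers, beside 12.9% of all tested genes. Both restrainers that passed rose, where 5.24% of all tested genes did, but a count of 2 among 8 genes is too small to set that list apart. Positive values numbered 7 of 17 among the activators and 5 of 8 among the restrainers. The 7 include the imprecise class II genes PIK3C2A and PIK3C2B, and no count leaves these genes out by class. RHEB, RPS6KB2 and TSC2, whose signs turned under centring, were counted as negative. The difference between the sides was not tested. The activator with the largest change, IRS2, rose. Counts of activators that passed rest on IRS1 and PIK3CD: at an adjusted p under 0.01, with a log2 change of at least 0.5 or centred within deciles of mean level, 1 activator passed in place of 3, namely IRS2. Median changes of all tested genes moved with the mean level, from 0.32 in the lowest decile to -0.16 in the highest, and in the decile of IRS1 stood at -0.12. Centred within those deciles the activators had a median of 0.02 and the restrainers 0.20.

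The 33 genes differed in how precisely they were measured. Of the 27 genes that did not pass, 20 had an interval wholly inside a 1.5-fold change in either direction. The other 7 were DEPTOR, FOXO1, FOXO4, MLST8, PIK3C2A, PIK3C2B and RICTOR, whose intervals reach beyond that size. All intervals rest on moderated changes and an SE that may be technical, so larger changes are not excluded for the 20 either. The SE lay between 0.14 and 0.20 for 24 of the 26 genes whose mean level reached 1000. RICTOR and PIK3C2A were the other two, with SE above those of 99.3% and 98.5% of the tested genes in their decile of mean level, as the deposited SE give it. Such an SE is rare: of 7377 tested genes at that level 197 (2.67%) had one above 0.35, and only 9 lay between 0.25 and 0.35. Transcripts of these genes were poor in G and C. The median GC content was 36.6% for the 185 of the 197 with a GENCODE 29 coding transcript and 47.5% for the 6985 genes at that level with one, and RICTOR had 36.5% and PIK3C2A 37.1%. PIK3CA, the member poorest in GC at 34.8%, had an SE of 0.20 in the authors' deposited table. The part of GC content in the spread was not tested.

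**Figure D4:**
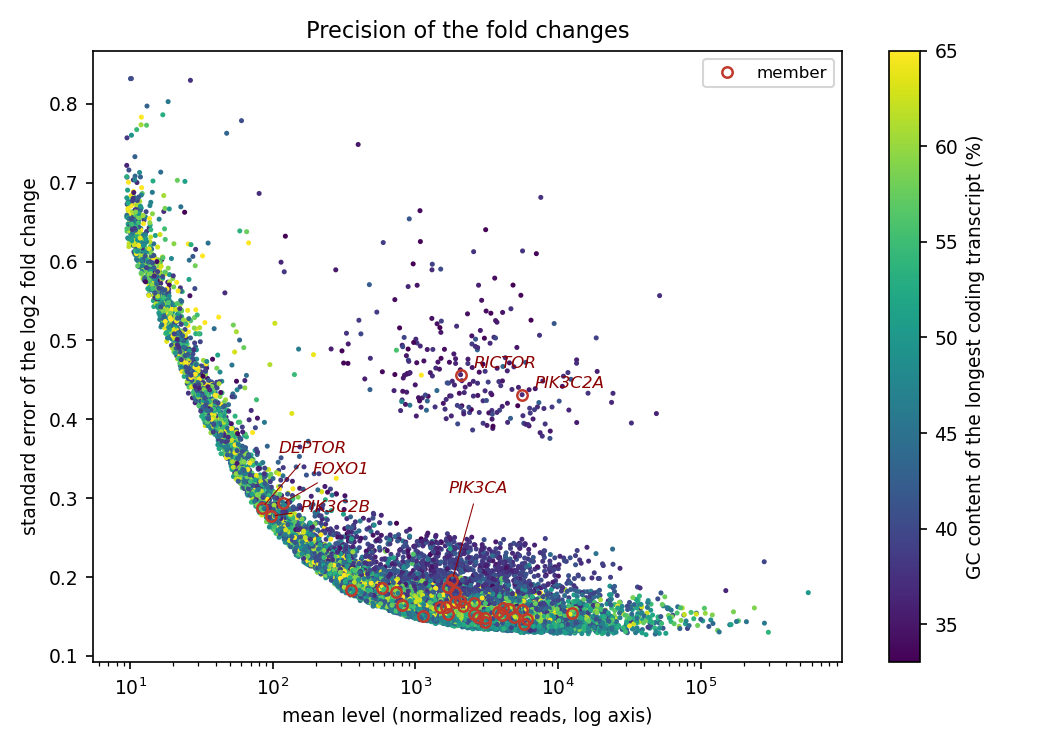
Mean level (horizontal, log axis, normalized reads) against the deposited standard error of the log2 fold change for tested genes with a GENCODE 29 coding transcript, coloured by the GC content of that transcript, with the 33 pathway genes as open circles. RICTOR (0.46) and PIK3C2A (0.43) sit in a separate band of low-GC genes, while DEPTOR, PIK3C2B and FOXO1 are imprecise at a low level.

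Genes connected to the pathway were counted from lists chosen with earlier results of these data known, so their counts describe and support nothing. Over all 5 lists, 91 tested genes outside the 33, 6 rose and 16 fell (24.2%), beside the background of 12.9%. In the list of stress brakes on mTORC1, 0 of 10 rose and 2 fell (20%, likewise beside 12.9%). DDIT4, an inhibitor of mTORC1 induced by stress, was 5.39-fold lower in the authors' deposited table (-2.43 ± 0.14, adjusted p = 7.46e-63, mean level 10000.3), and the pseudokinase gene TRIB3 fell by less (-0.65 ± 0.16). SESN2, another stress-induced brake, had 0.25 ± 0.14 there and did not pass.

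Amino acids reach mTORC1 through the Rag GTPases and their regulators, and of 24 such genes 3 rose and 1 fell (16.7%, near the 12.9% of all tested genes). RRAGA, a Rag GTPase gene, fell 2.45-fold in the authors' deposited table (-1.29 ± 0.15, adjusted p = 1.08e-16). RRAGC, whose product pairs with that of RRAGA, rose (0.53 ± 0.15, adjusted p = 0.0069) in the authors' deposited table. FNIP2, a partner of the tumour suppressor folliculin, also rose in the authors' deposited table (0.72 ± 0.19, adjusted p = 0.0029). Downstream of mTORC1, 0 of 11 rose and 2 fell (18.2%, on a list too short to set apart from 12.9%): the translation repressor EIF4EBP1 (-0.85 ± 0.16) and the elongation factor kinase EEF2K (-0.64 ± 0.15) in the authors' deposited table.

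Among 24 other tested regulators of PI3K and AKT, 2 rose and 2 fell (16.7%, near the 12.9% of all tested genes). SGK1, an AKT-related kinase that mTORC2 activates, rose 1.40-fold in the authors' deposited table (0.49 ± 0.14, adjusted p = 0.0081), and the pseudokinase gene TRIB1 rose too (0.38 ± 0.14, adjusted p = 0.045). PRR5L, a gene for an mTORC2-binding protein, was 2.45-fold lower in the authors' deposited table (-1.29 ± 0.20, adjusted p = 8.03e-09) and TRIB2 1.94-fold lower (-0.95 ± 0.15, adjusted p = 3.02e-08). The PI3K inhibitor gene PIK3IP1 had 0.25 ± 0.39 at a mean level of 44.8 there and did not pass.

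Of 27 tested genes known as FOXO targets, 2 of them among the 33, 2 rose, 9 fell and 16 did not pass. The share that passed was 40.7%, beside 12.9% of all tested genes (5.24% higher, 7.64% lower). The list's median of -0.01 lay close to that of all tested genes, -0.05. Because the list was chosen with earlier results of these data known, the share describes these genes and not FOXO targets in general. The targets that rose were IRS2 and the stress gene GADD45A (0.66 ± 0.14) in the authors' deposited table. The largest falls were those of C10orf10 (now DEPP1), BNIP3, the transcription factor KLF2 and IGFBP1, at -2.76 ± 0.19, -2.11 ± 0.14, -1.39 ± 0.18 and -1.05 ± 0.15 in the authors' deposited table. MXI1 (-0.74 ± 0.16) and the cyclin gene CCNG2 (-0.83 ± 0.19) were also lower in the authors' deposited table. Neither FOXO activity nor other regulators of these genes were tested. Targets tied to the pathway itself included the insulin receptor gene INSR (-0.57 ± 0.16) and the cell cycle inhibitor gene CDKN1B (-0.63 ± 0.22, adjusted p = 0.042), which fell in the authors' deposited table. Neither TXNIP (0.03 ± 0.13) nor SOD2 (0.08 ± 0.16) passed there.

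**Figure D5:**
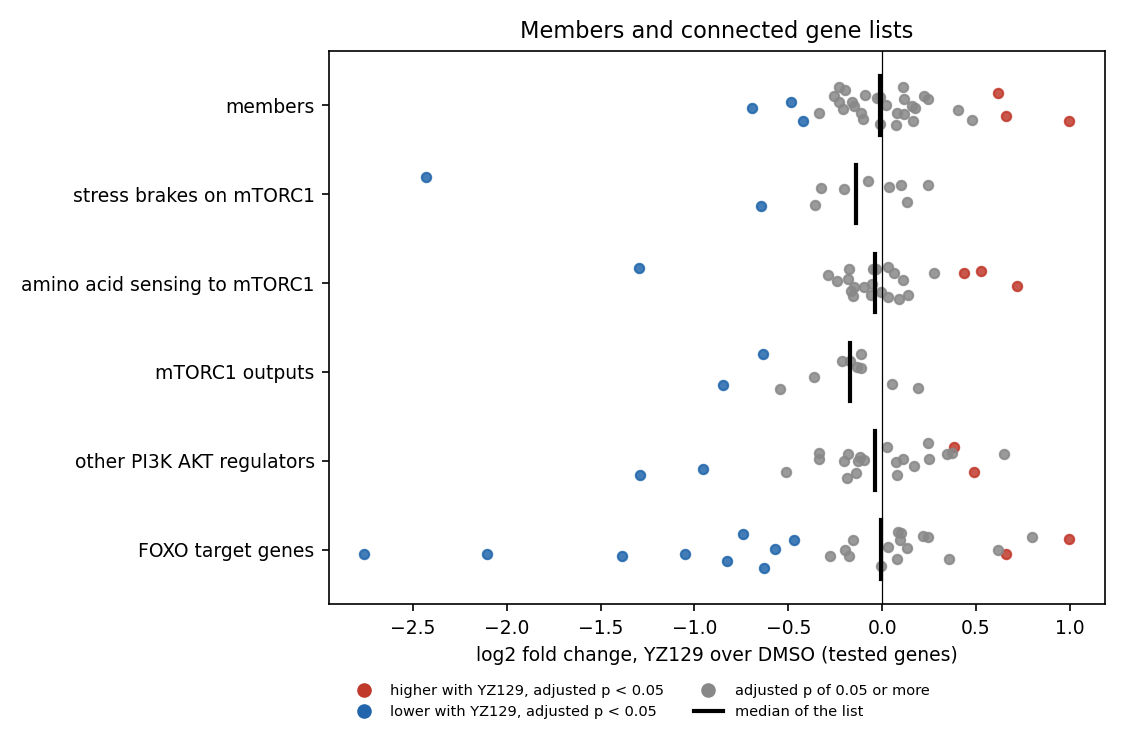
Moderated log2 fold change (horizontal) of the tested genes of each list, the 33 pathway genes at the top, coloured by call, with the median of each list as a black bar and vertical scatter only to separate points. The pathway genes lie between -0.69 and 1.00, while the lists of stress brakes and FOXO targets reach DDIT4 at -2.43 and C10orf10 at -2.76.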

How the data were processed

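Only 1 table, the authors' comparison of DMSO and YZ129 cells, was used. Per the submitters' processing notes hg19, Cuffdiff, Cufflinks 2.2.1 and TopHat2 2.0.12 were used, with no role given. Per the file headers the table has DESeq2's result columns; version, counter and annotation: not given in the sources used here. The authors gave a mean level, a normalized signal per gene, and a log2 fold change with its SE on the log2 scale. They also deposited, per gene, a Wald score and p-values before and after adjustment. The score equalled the log2 fold change over its SE, and the adjusted p a Benjamini-Hochberg adjustment over 14812 genes; 4937 rows had none. The fold changes had been moderated towards 0 by the authors: 525 genes with 2 reads in all reached at most 0.58 in size. The mean levels of all 525 were sums of the values of single reads in 8 libraries (tolerance 1e-07; size factors 0.852 to 1.17). Totals of reads per library are unknown, so no counting interval is given.

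The call was the authors' adjusted p under 0.05; no gene was tested anew. Intervals (95%), alternative adjustments and centring were computed with Python 3.11.15, pandas 2.3.3 and scipy 1.17.1 and tested on simulated data. GENCODE 29 gave transcript lengths and GC content (86.4% of tested genes), and RefSeq GRCh38.p14 the promoters. Promoter windows of 24 of 30 genes held the start of a GENCODE transcript as written and 0 its reverse complement. Every pathway gene was named. Of each connected list up to 6 called genes with the smallest adjusted p, and DDIT4, EIF4EBP1, SGK1 and PIK3IP1, could be named, and some genes are not reported here; HSPA6, BAG3, SESN2, TXNIP, SOD2, MXI1, CCNG2, INSR and CDKN1B were named after their values were seen. The genes and lists were chosen with earlier results of these data known.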

Additional observations from a re-analysis of the deposited data

How the results depend on the processing

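Counts of genes that passed and medians were recomputed under other thresholds, filters, centrings and assignments, 51 values in all. Of these, 47 stayed within 1.5 times the count or within the median SE of the 33 genes (0.16). Those bounds are wide. The activator median went from -0.10 to 0.02 when centred within deciles of mean level, and still counted as within them. The number of activators that passed was 1 at an adjusted p under 0.01, 1 with a log2 change of at least 0.5 in size and 1 when centred within deciles of mean level. The number of restrainers that passed was 1 among genes at or above the median level, where INPP4B is left out. Centring turned the sign of genes near 0: on the median of all tested genes TSC2 stood at 0.023, GSK3A at 0.0387 and GSK3B at 0.0387. Within deciles of mean level TSC2 stood at 0.0472, RHEB at 0.0433, RPS6KB2 at 0.0166, GSK3A at 0.10 and GSK3B at 0.10. Within deciles of transcript GC content, an alternative chosen after seeing the data, TSC2 stood at 0.0716, RPS6KB2 at 0.0305, GSK3A at 0.0313 and GSK3B at 0.0408. Under that alternative PIK3CD did not pass (adjusted p = 0.13) and the other 5 calls stayed. IRS2, INPP4B, TSC1 and PIK3R2 passed under all of these centrings and with no filter. The median of the 33 genes was 0.04, 0.10 and 0.06 under the 3 centrings, against -0.01. No paired analysis was possible because the table holds no values per library, and for the same reason no library could be left out.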

Other observations

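Among the 17 pathway genes at or above the group's median GC content of 51.9%, 10 had negative changes with a median of -0.03, and among the other 16 the count was 7 and the median 0.05. Over all tested genes whose mean level reached 1000 the medians on the same sides of that GC content were -0.13 and -0.10. TRIM63, a muscle ubiquitin ligase gene on the FOXO target list, had 3.16 ± 0.82 at a mean level of only 3.44 in the authors' deposited table, with no adjusted p-value, so it was left out of all counts.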
